A study of Mus musculus with 8 samples.

Results

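The genes described here are 10 genes proposed as gained in tumour-associated macrophages (TAM) over macrophages of naive mice: Arhgef37, Gpr132, Gpr141, Arl5c, Nupr1, Plxdc1, Ptpro, Gch1, Rgs1 and Gm6377. They were chosen by their measured values in these same libraries, above all in TAM in contact with myeloma against naive, and Arhgef37 and Gpr141 also in TAM in contact against those not in contact. Their levels over naive are therefore a description and not a test. All 10 were found among the 47643 genes of the macrophage table, and all 10 passed the filter on low counts that left 15522 genes for testing. All 10 were also present among the 52458 symbols of the plasma cell table.

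The study sequenced bulk RNA of sorted bone marrow cells of wild-type B6 mice. Cells of Vk*MYC, a mouse myeloma that can be passed on by transplantation and here carried GFP, had been injected into the tibia, and TAM were gated as F4/80 high and CD11b low. GFP- TAM were taken as not in contact with myeloma (2 libraries, called non-contact TAM here), GFP+ TAM as in contact (2 libraries, contact TAM), and marrow macrophages of mice without tumour formed the naive group (2 libraries). The study sorted both myeloma and polyclonal plasma cells, and the labels of the other 2 libraries, plasma cells, do not say which is which. None of the groups was treated, and the sources used here give no ages. The labels give each library of a TAM group its own mouse number, but none to naive macrophages and plasma cells. For those libraries the number of animals is not given. Where nothing says that libraries are separate animals, the p-values below measure only the spread between these libraries.

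Values are counts scaled to the library total (CPM), listed as replicate 1 and then replicate 2. Library totals ran from 28887725 to 81792139 counts, so the floor of 3 counts lay between 0.0367 and 0.104 CPM, and members were far above it in all macrophage libraries. Non-contact TAM replicate 2 stood apart with 9.13% of its counts on immunoglobulin genes, against 0.166% to 0.632% in the other macrophage libraries and 67.3% and 70.4% in plasma cells. The Y-linked transcript Ddx3y was at 88.4 CPM in contact TAM replicate 2 and at no more than 0.258 CPM in the other macrophage libraries. The libraries that the labels number mouse 2 therefore come from different animals. The X-linked transcript Xist was at 0 CPM in contact TAM replicate 2 and at 17.5 to 53.8 CPM in the other macrophage libraries. Sex thus differed within contact TAM, and its part in the comparisons was not tested. Of 16 marker genes of resident marrow macrophages all were tested, and their summed level was 42582 and 19861 CPM in naive, 28822 and 20673 in non-contact TAM, and 5540 and 2419 in contact TAM. These markers were thus found in all 6 libraries, at lower levels in contact TAM, but they were not the largest marker sum everywhere. In contact TAM the sums of 14 neutrophil markers (53600 and 31068 CPM) and of 13 monocyte markers (8935 and 9152) were larger. The neutrophil sum was also the larger one in naive macrophages (53971 and 84910 CPM). In bulk RNA, a different number of cells of a type and a different amount of RNA per cell cannot be told apart.

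As background, TAM are macrophages of a tumour's surroundings, and in marrow they lie among plasma cells, stromal cells and blood progenitors. Macrophages read their surroundings through G protein-coupled receptors, which respond to lipids, nucleotides, acid and chemokines and whose signals are ended by RGS proteins. Gpr132 is such a receptor of leukocytes and a relative of proton-sensing receptors, while Gpr141 is an orphan receptor. Downstream of many surface receptors, guanine nucleotide exchange factors switch on small GTPases that move the actin skeleton, and ARF-like GTPases steer vesicle traffic.

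The contact TAM libraries lay above both naive libraries for 10 of 10 members, a rule that 23.0% of all tested genes met. For the non-contact TAM libraries this held for 9 of 10 members (16.6% of all tested genes), and for all 4 TAM libraries together for the same 9 (8.21% of all tested genes). The exception was Gpr141. Since these comparisons chose the members, nothing is read from the difference to the other genes. Between the TAM groups the members fell into 3 patterns. In 7 of them the groups stood in the order naive, non-contact TAM, contact TAM with no overlap, which 1.59% of tested genes did. Rgs1 and Gm6377 were highest in non-contact TAM (1.61% of tested genes had that order), and Gpr141 was lowest there (2.26% of tested genes).

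**Figure D1:**
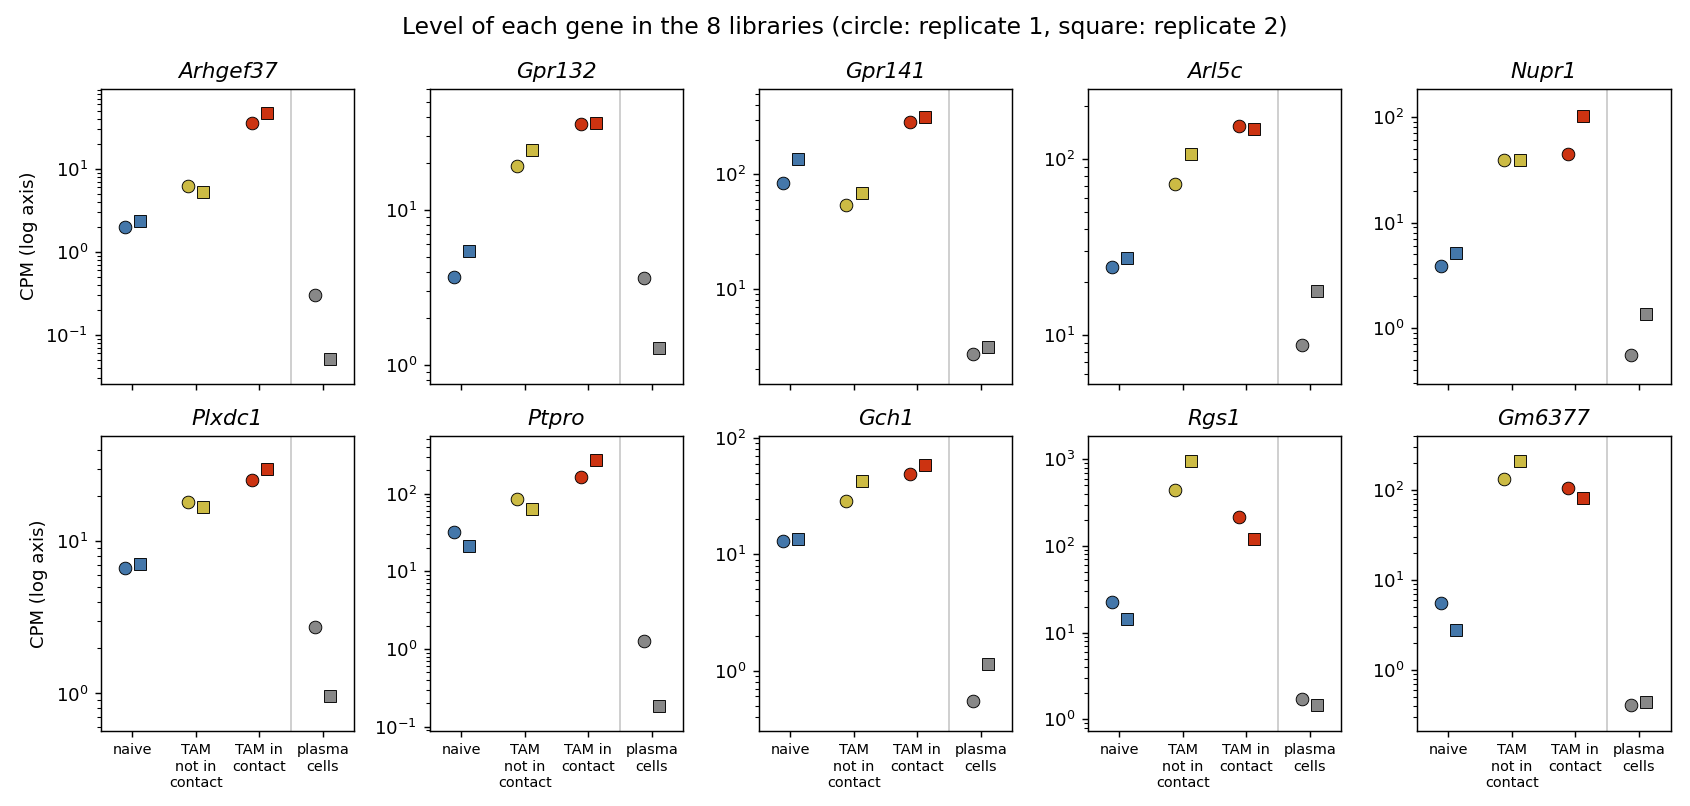
Level of each of the 10 genes in CPM on a log axis (each panel has its own range) in naive macrophages, non-contact TAM, contact TAM and plasma cells, with 1 point per library. The contact TAM points lie above the naive points in every panel, the non-contact TAM points lie above them in every panel but that of Gpr141, and the plasma cell points are the lowest of each panel.

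Among the surface receptors, Gpr132 (GRCm38 chromosome 12, 112850873 to 112868228, minus strand) was at 3.69 and 5.43 CPM in naive macrophages, 19.2 and 24.4 in non-contact TAM, and 35.6 and 36.5 in contact TAM. The 3 groups did not overlap, and the lowest TAM library was 3.54 times the highest naive library. Fitted log2 fold changes over naive were 2.40 ± 0.31 (SE, n = 2 per group) for non-contact TAM and 3.14 ± 0.31 for contact TAM. The stretch before the start of a Gpr132 transcript in RefSeq is shown because its letters hold matches to 2 of the 5 motifs searched. Bases of an annotated Gpr132 exon are left out, the build is GRCm38.p6, chr12:112860953-112861166 on the minus strand, and capitals mark the matches. The stretch lies inside the gene body given above, whose upstream end is at 112868228.

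Gpr132: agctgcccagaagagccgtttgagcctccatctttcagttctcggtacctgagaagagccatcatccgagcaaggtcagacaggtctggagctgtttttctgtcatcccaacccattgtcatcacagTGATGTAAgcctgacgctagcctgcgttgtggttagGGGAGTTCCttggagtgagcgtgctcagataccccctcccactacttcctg

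The first match, which begins 123 bases before the start, is to the composite element of the stress factors ATF4 and CHOP (TGATGNAA), and the second, 87 bases before it, is to a kappa B element (GGGNNTTCC). These windows of 300 bases, 250 before and 50 after a start, are listed for 6 of the 10 members. The ATF4 and CHOP letters were in 3.97% of all 32851 promoters and in 2 of these 6, Gpr132 and Nupr1, and the kappa B letters in 5.82% of promoters and in Gpr132. Both strands were searched, and a match is a description of letters, not of a bound site. The letters of AP-1 (TGANTCA, 7.81% of promoters) and of PU.1 (GAGGAA, 28.3%) were in 0 of the 6 windows, and an E-box (CACGTG, 7.15%) was in that of Nupr1.

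Ptpro, a receptor-type protein tyrosine phosphatase (chromosome 6, 137252319 to 137463233, plus strand), was at 31.8 and 21.1 CPM in naive, 84.5 and 63.5 in non-contact TAM, and 162 and 274 in contact TAM. Its lowest TAM library was 2.00 times its highest naive library. The log2 fold changes over naive were 1.63 ± 0.39 and 3.21 ± 0.42 for non-contact TAM and in contact. Plxdc1, a membrane protein first known from tumour endothelium (chromosome 11, 97923238 to 97986444, minus strand), was at 6.66 and 7.06 CPM in naive, 18.1 and 16.9 in non-contact TAM, and 25.4 and 29.7 in contact TAM. The libraries of each group lay close together, with log2 fold changes of 1.49 ± 0.27 and 2.17 ± 0.27.

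Plxdc1 has another member as its neighbour. Arl5c, an ARF-like small GTPase (chromosome 11, 97989578 to 97996181, minus strand), starts upstream on the same strand, with 3133 bases between the gene bodies. It was at 24.2 and 27.5 CPM in naive, 72.5 and 107 in non-contact TAM, and 155 and 148 in contact TAM, and its log2 fold changes were 1.93 ± 0.27 and 2.71 ± 0.28. The log2 CPM of the pair had a Pearson r of 0.98 over the 6 macrophage libraries. Other members without such a position, such as Gpr132 and Gch1, had r = 0.99 with Arl5c, so the value describes what most members share. The next tested gene beyond Arl5c, the calcium channel subunit gene Cacnb1, was at 3.24 and 3.08 CPM in naive, 5.80 and 3.93 in non-contact TAM, and 5.06 and 4.30 in contact TAM (log2 fold change of contact TAM against naive 0.72 ± 0.47, edgeR adjusted p = 0.503). Whether reads that run past the end of Arl5c add to Plxdc1 was not tested.

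Arhgef37, named as a guanine nucleotide exchange factor (chromosome 18, 61491657 to 61536594, minus strand), was the member with the widest gap between the TAM groups. It was at 2.01 and 2.39 CPM in naive, 6.33 and 5.31 in non-contact TAM, and 36.3 and 47.0 in contact TAM. Its mean level in contact TAM was 19.0 times that in naive and 7.15 times that in non-contact TAM, while the mean of non-contact TAM was 2.65 times that of naive. The log2 fold changes over naive were 1.55 ± 0.31 and 4.41 ± 0.35.

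Gch1 encodes GTP cyclohydrolase 1, which starts the synthesis of tetrahydrobiopterin, the cofactor of nitric oxide synthases (chromosome 14, 47153895 to 47189413, minus strand). It was at 12.9 and 13.6 CPM in naive, 28.5 and 43.0 in non-contact TAM, and 49.1 and 59.0 in contact TAM. The log2 fold changes over naive were 1.56 ± 0.28 and 2.19 ± 0.29, the second of which was close to that of Plxdc1. Nos2, the inducible nitric oxide synthase gene, did not pass the filter on low counts.

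Nupr1 encodes a small nuclear protein that cells make under stress (chromosome 7, 126623249 to 126630861, minus strand). It was at 3.90 and 5.09 CPM in naive, 39.6 and 39.6 in non-contact TAM, and 45.0 and 102 in contact TAM, with log2 fold changes over naive of 3.28 ± 0.47 and 4.21 ± 0.49. Its lowest TAM library was 7.78 times its highest naive library. The gap between the TAM groups rested on 1 library, since the log2 fold change of contact TAM over non-contact TAM was 0.93 ± 0.43 with all libraries and 0.17 without contact TAM replicate 2. Around the ATF4 and CHOP match of its RefSeq promoter (chr7:126625562-126625591, minus strand, capitals mark the match, here on the opposite strand to the gene) 30 bases read as follows.

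Nupr1: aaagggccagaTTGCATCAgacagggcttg

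The match begins 110 bases before the RefSeq start and lies within an exon of other annotated Nupr1 transcripts.

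Rgs1 and Gm6377 had the opposite order between the TAM groups. Rgs1, which speeds the shut-off of G proteins below chemokine receptors (chromosome 1, 144242296 to 144249242, minus strand), was at 22.4 and 14.3 CPM in naive, 437 and 962 in non-contact TAM, and 215 and 119 in contact TAM. Its log2 fold changes over naive were 5.38 ± 0.59 and 3.33 ± 0.54. The highest value was in non-contact TAM replicate 2, the library with 9.13% immunoglobulin counts, and replicate 1 of that group was still above both contact TAM libraries. Gm6377, a protein-coding gene model without an assigned function (X chromosome, 109196756 to 109200439, plus strand), was at 5.59 and 2.77 CPM in naive, 132 and 210 in non-contact TAM, and 106 and 83.0 in contact TAM. Its log2 fold changes were 5.48 ± 0.48 and 4.64 ± 0.47, and its lowest TAM library was 14.8 times its highest naive library, the widest such gap of the 10 members. Gm6377 shares 229 exonic bases with Sh3bgrl on the same strand. Sh3bgrl was at 195 and 204 CPM in naive, 506 and 141 in non-contact TAM, and 446 and 433 in contact TAM, so its libraries did not follow the order of Gm6377. The sources used here do not give how reads in the shared bases were assigned.

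Gpr141 (chromosome 13, 19749682 to 19824257, minus strand) did not match the description of a gene gained in TAM as a whole. It was at 84.7 and 136 CPM in naive, 53.8 and 68.7 in non-contact TAM, and 285 and 314 in contact TAM. Both non-contact TAM libraries were below both naive libraries, and both contact TAM libraries were above them. The log2 fold changes over naive were -0.71 ± 0.32 and 1.60 ± 0.32, the second being the lowest of the 10 members. The related receptor gene Gpr141b was low, at 0 to 3.26 CPM in the macrophage libraries.

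**Figure D2:**
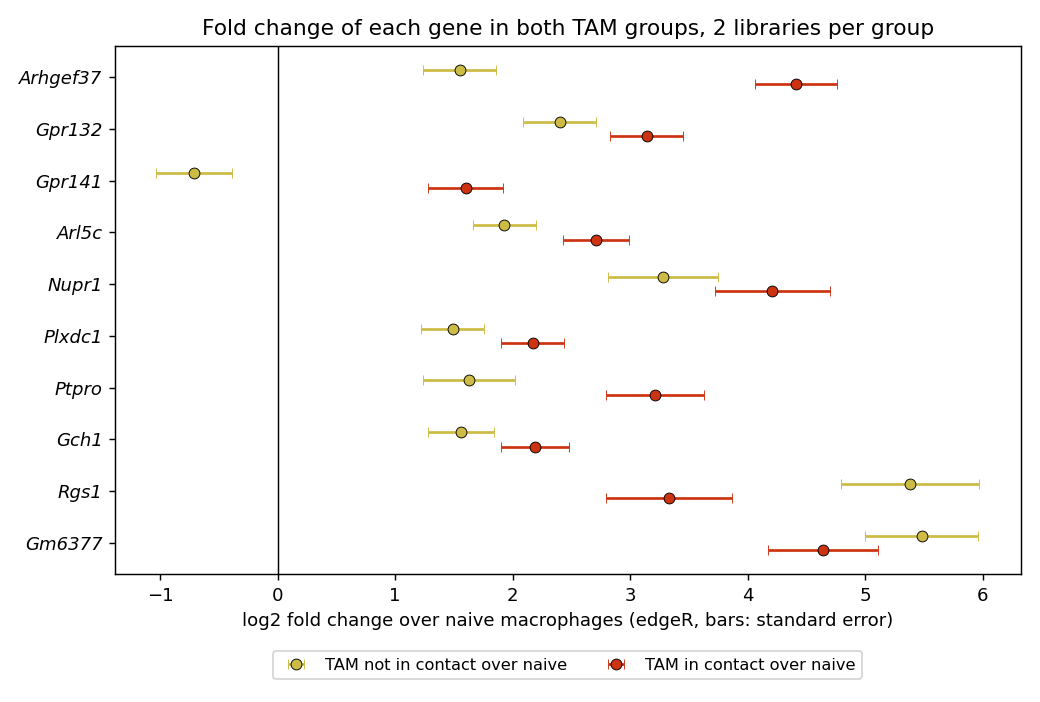
Log2 fold change over naive macrophages of each gene in non-contact TAM and in contact TAM, from edgeR's fit with bars of 1 standard error and 2 libraries per group. Values for contact TAM run from 1.60 (Gpr141) to 4.64 (Gm6377), and those for non-contact TAM from -0.71 (Gpr141) to 5.48 (Gm6377).

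Over all members the median log2 fold change over naive was 3.17 in contact TAM and 1.78 in non-contact TAM, where the medians over all tested genes were 0.00 and 0.06. Both comparisons use the same naive libraries. Of 5 genes that edgeR's quasi-likelihood test called higher in contact TAM than in naive (0.0322% of 15522), 4 were members (Arhgef37, Gpr132, Arl5c and Gm6377), and the other was the adaptor gene Traf1. Nupr1 came next among the members with an adjusted p of 0.0529. Those calls had chosen these members, and 0 of the members were called without contact TAM replicate 1 or 2 or without naive replicate 1 or 2, whereas 9 were called without non-contact TAM replicate 1 and 9 without its replicate 2. For non-contact TAM against naive edgeR called 0 members and 0 genes in all (0%), with 2354 genes at an unadjusted p under 0.05, while DESeq2 called 9 members and 1269 genes and limma-voom called 0 genes. Without non-contact TAM replicate 1 edgeR called 6 members and 477 genes, and without replicate 2 it called 4 and 274.

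Levels were also compared between members per kilobase of annotated exon, since longer transcripts collect more reads. On that scale the mean of contact TAM was highest for Arl5c (73.1 CPM per kilobase) and Gpr141 (50.1), and lowest for Plxdc1 (5.70) and Arhgef37 (7.10). In non-contact TAM Rgs1 led (101 CPM per kilobase, replicates 62.9 and 138), and its range overlapped that of Gm6377 (47.2 and 75.1). The length used joins all annotated exons of a gene, and for Rgs1 these cover its whole gene body (6947 bases). Where its transcripts are spliced, its level on this scale is therefore set too low, and its rank and overlap with other members are uncertain. In naive macrophages Gpr141 (14.2 and 22.8) and Arl5c (11.7 and 13.3) led, and Arhgef37 was lowest at 0.342 and 0.407. The member with the widest gap of contact TAM over non-contact TAM was thus also among those of lowest level in every group.

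The comparison of contact TAM with non-contact TAM was not the one that chose the other 8 members, although it uses the same TAM libraries. Both contact TAM libraries were above both non-contact TAM libraries for 8 of the 10 members (24.4% of all tested genes) and below them for 2 (22.3% of all tested genes). Nothing is read from these counts. Arhgef37 and Gpr141 were chosen on this comparison, and the other 8 members above all by their levels in contact TAM. The fitted log2 fold changes of the 8 members not chosen on it were 0.74 ± 0.29 for Gpr132 (edgeR adjusted p = 0.275), 0.78 ± 0.26 for Arl5c (adjusted p = 0.23), and 0.67 ± 0.26 for Plxdc1 (adjusted p = 0.278). They were 1.58 ± 0.39 for Ptpro (adjusted p = 0.185), 0.62 ± 0.28 for Gch1 (adjusted p = 0.322) and 0.93 ± 0.43 for Nupr1 (adjusted p = 0.331). Rgs1 had -2.05 ± 0.51 (adjusted p = 0.185) and Gm6377 -0.84 ± 0.40 (adjusted p = 0.345). None of these 8 passed, edgeR called 0 of 15522 genes in this comparison (0%), and 2653 genes had an unadjusted p under 0.05. Of these 8, DESeq2 called Ptpro (adjusted p = 0.00825) and Rgs1 (adjusted p = 0.00235) among 1618 genes, and limma-voom called 0. Without non-contact TAM replicate 1 edgeR called 1510 genes, and of the 8 only Rgs1 (adjusted p = 0.0376). Arhgef37 and Gpr141, which had been picked on this comparison, had log2 fold changes of 2.86 ± 0.32 and 2.31 ± 0.33.

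Plasma cells were considered as a source of the members' transcripts, since myeloma lay among the sorted cells and contact TAM were sorted for its GFP. In the plasma cell libraries 10 of 10 members were below all 6 macrophage libraries in CPM. Arl5c was at 8.73 and 17.8 CPM, Gpr132 at 3.64 and 1.28, and Gpr141 at 2.69 and 3.08. Arhgef37 was at 0.306 and 0.0522 CPM, the second under that library's floor of 0.0782 CPM, and Gm6377 at 0.416 and 0.443. Immunoglobulin transcripts take up most of a plasma cell library, so CPM were also computed over the other counts alone. On that scale 10 of 10 members still had both plasma cell libraries below all 4 TAM libraries, but only 6 of 10 had them below both naive libraries. The 4 others were Gpr132 (11.1 and 4.32), Arl5c (26.7 and 60.3), Nupr1 (1.68 and 4.58) and Plxdc1 (8.37 and 3.26).

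The amount that plasma cell RNA could add was set out by multiplying each plasma cell level by the ratio of the immunoglobulin share of a macrophage library to that of the plasma cell library, taking the higher result of the 2 plasma cell libraries. This assumes that immunoglobulin and member transcripts stand in the same ratio as in these plasma cell libraries. For the Y-linked Ddx3y such a ratio did not hold. It was at 23.3 and 15.6 CPM in the plasma cell libraries, but at 0.258 CPM in non-contact TAM replicate 2, with its 9.13% immunoglobulin counts. The source of the immunoglobulin counts there thus differed from these plasma cell libraries in this transcript. Whether it also differed in the members was not tested. In contact TAM the scaled level was at most 0.0335% of the measured level (Arl5c in replicate 2, 0.0497 of 148 CPM). In non-contact TAM replicate 1 it was at most 0.139% (Arl5c). In replicate 2 of that group, which had the most immunoglobulin counts, it was at most 2.20% (Plxdc1, 0.372 of 16.9 CPM). With the sum of 12 plasma cell markers in place of the immunoglobulin share, the highest values were 0.141%, 0.302% and 1.63% in the same order. Immunoglobulin shares were lower in contact TAM (0.166% and 0.196%) than in naive macrophages (0.466% and 0.632%).

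**Figure D3:**
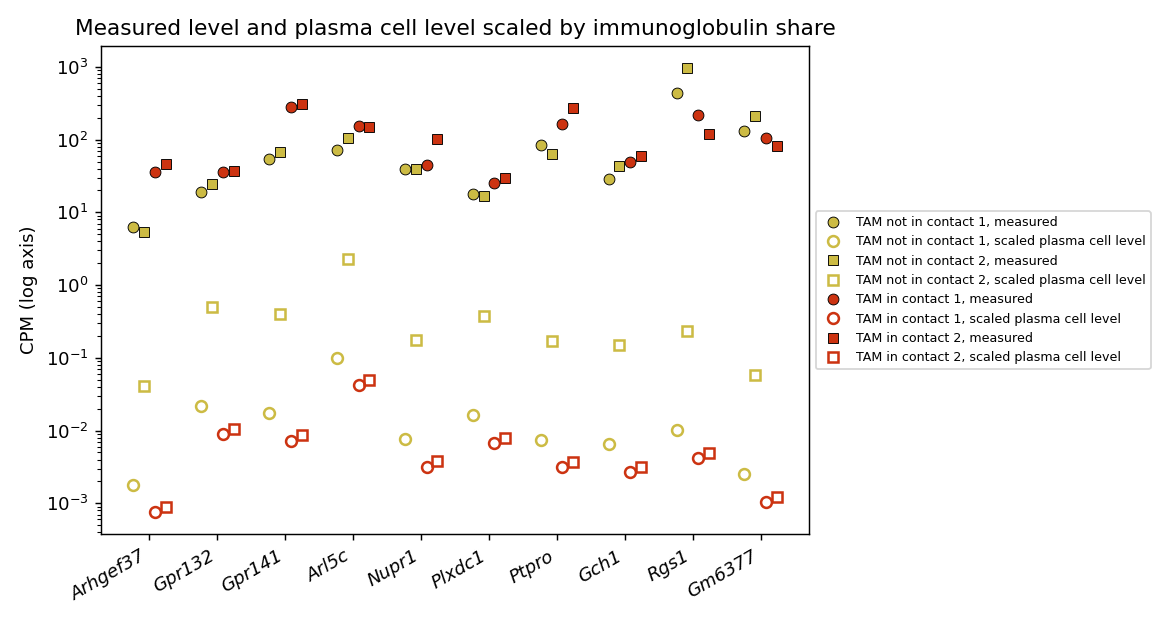
Measured level of each gene in the 4 TAM libraries (filled points) and the plasma cell level scaled by immunoglobulin share (open points), in CPM on a log axis. The scaled level is at most 2.20% of the measured one, reached by Plxdc1 in non-contact TAM replicate 2.

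Markers of other marrow cells also differed between the groups. The summed level of 13 monocyte markers was 4636 and 7406 CPM in naive, 3147 and 4582 in non-contact TAM, and 8935 and 9152 in contact TAM. Of the 13, 9 had both contact TAM libraries above both naive libraries (23.0% of all tested genes). Ly6c2, a defining gene of classical monocytes, was at 188 and 356, 139 and 328, and 494 and 192 CPM respectively in these groups, so its groups overlapped. The sum of 14 neutrophil markers was 53971 and 84910 CPM in naive, 9777 and 20392 in non-contact TAM, and 53600 and 31068 in contact TAM. For 13 markers of eosinophils, basophils and mast cells it was 1988 and 2777, 248 and 670, and 1087 and 1568 CPM. Neither sum was above naive in contact TAM, but both were above non-contact TAM. Dendritic cell markers (11 genes) summed to 159 and 119 CPM in naive, 590 and 184 in non-contact TAM, and 499 and 236 in contact TAM. This sum was higher in all 4 TAM libraries, as were 9 of the members, but not all its genes were. Both contact TAM libraries were above both naive libraries for 5 of the 11 (23.0% of all tested genes). Flt3, the first gene of the list, was at 19.3 and 24.6 CPM in naive, 9.21 and 16.1 in non-contact TAM, and 45.5 and 26.7 in contact TAM. The sum of 11 markers of T and NK cells was 264 and 214, 422 and 157, and 251 and 82.2 CPM, and its groups overlapped. Of these 11 genes, 10 had positive log2 fold changes in contact TAM over naive (median 1.24, 0 called), as did 49.9% of all tested genes. Both contact TAM libraries were above both naive libraries for 5 of them. Megakaryocyte and platelet markers (10 genes) were at 126 and 137, 152 and 336, and 124 and 125 CPM, erythroid markers (9 genes found) at 439 and 290, 148 and 197, and 146 and 39.3, and B cell markers (11 genes) at 578 and 662, 292 and 411, and 143 and 102. No marker of these lists was at 0 in both contact TAM libraries. The part of these cells in the members' levels was not tested.

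**Figure D4:**
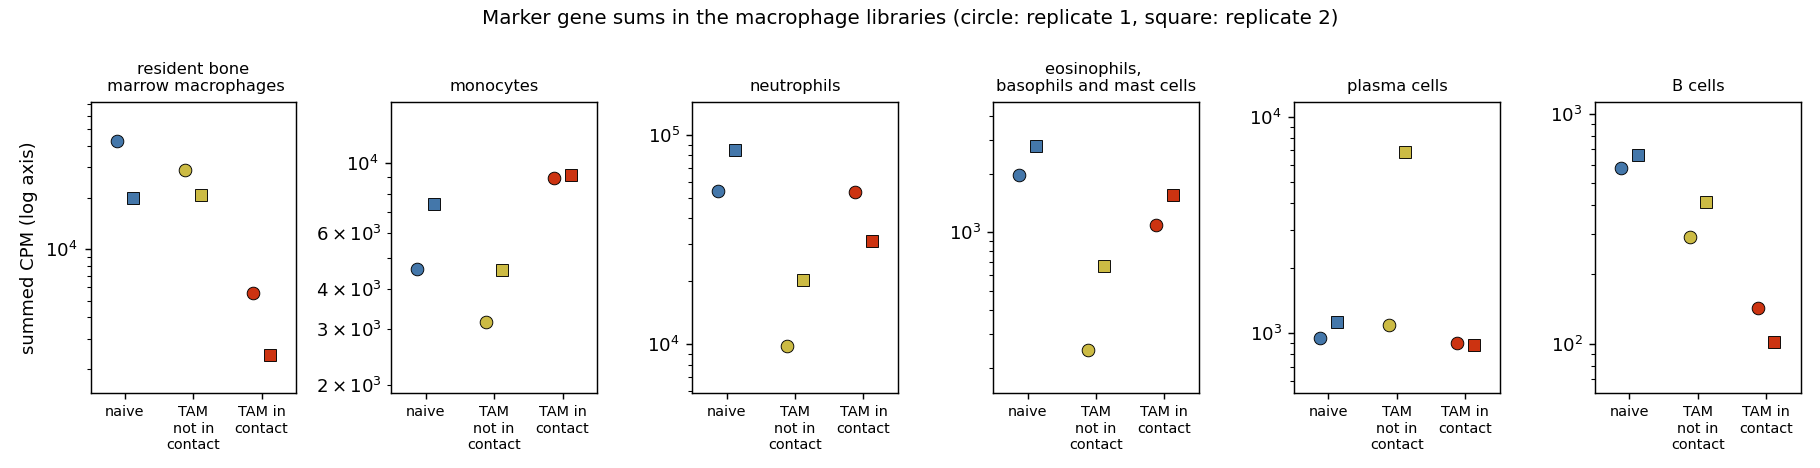
Summed CPM of marker genes (log axes, each with its own range) in the 6 macrophage libraries. Resident macrophage markers are lowest in contact TAM (5540 and 2419 CPM), monocyte markers are highest there (8935 and 9152 CPM), and plasma cell markers are highest in non-contact TAM replicate 2 (6907 CPM).

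Relatives and pathway partners of the members were taken from 8 lists with 136 genes, of which 117 were tested. edgeR called 0 of these 117 in the 3 comparisons, where over all genes it called 0.0322% higher and 0.187% lower in contact TAM than in naive. All 4 TAM libraries were above both naive libraries for 15 of the 117, or 12.8%, against 8.21% of all tested genes. Among receptors related to Gpr132 and Gpr141, 12 of 16 had positive values in contact TAM against naive (median 0.63), with 0 called. Gpr35, a receptor of tryptophan metabolites, was at 20.7 and 19.0 CPM in naive, 131 and 53.6 in non-contact TAM, and 182 and 247 in contact TAM (log2 fold change of contact TAM against naive 3.59 ± 0.51, adjusted p = 0.0784). Gpr18 had 3.47 ± 1.08 (adjusted p = 0.256), with 68.7 and 5.64 CPM in non-contact TAM, so those libraries differed widely.

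Of 13 tested RGS genes, 7 had positive values in contact TAM against naive (median 0.23). Rgs2, which acts mainly on Gq, was at 222 and 219 CPM in naive, 434 and 264 in non-contact TAM, and 581 and 1160 in contact TAM (2.15 ± 0.48, adjusted p = 0.172). It had the order naive, non-contact TAM, contact TAM, unlike Rgs1. Rgs3 had 1.08 ± 0.32 (adjusted p = 0.24). Among 19 exchange factor genes related to Arhgef37, 10 had positive values and the median was 0.01. Arhgef10l was at 25.3 and 16.7 CPM in naive, 83.1 and 28.5 in non-contact TAM, and 152 and 350 in contact TAM (3.75 ± 0.71, adjusted p = 0.126), and Arhgef12 had -1.59 ± 0.47 (adjusted p = 0.242).

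Of 17 ARF-like GTPase genes, 9 had positive values (median 0.17), and the smallest p-values belonged to Arl4a (-1.16 ± 0.27, adjusted p = 0.179) and Arl2 (-0.95 ± 0.27, adjusted p = 0.23), opposite in sign to Arl5c. In the tetrahydrobiopterin list 8 of 14 genes were tested and 4 had positive values (median -0.08). Sepiapterin reductase Spr, which completes the synthesis that Gch1 starts, had 0.97 ± 0.39 (adjusted p = 0.339), and the recycling enzyme gene Qdpr -0.47 ± 0.27 (adjusted p = 0.457). The receptor-type phosphatase list, which also holds the gene of a phosphatase-associated protein, had 13 tested genes, 6 of them with positive values (median -0.28). Ptprj had 1.68 ± 0.69 (adjusted p = 0.344) and Ptprv -1.23 ± 0.52 (adjusted p = 0.35). Among 10 genes of plexins and of Plxdc1's relatives 3 had positive values (median -0.42). Plxna1, a receptor of semaphorins, was at 139 and 51.8 CPM in naive, 95.6 and 77.0 in non-contact TAM, and 6.92 and 3.96 in contact TAM (-3.99 ± 0.58, adjusted p = 0.0798). Serpinf1 had -1.06 ± 0.52 (adjusted p = 0.397).

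The integrated stress response is a setting in which Nupr1 is known, and 0 of the 21 tested genes of its list were called in any of the 3 comparisons. The list's median log2 fold change over naive was -0.06 in contact TAM, with 10 of 21 genes positive, and 1.35 in non-contact TAM, with 20 of 21 positive, where 49.9% and 53.4% of all tested genes were positive. The second value moved with 1 library: all 21 genes were higher in non-contact TAM replicate 2, the library with 9.13% immunoglobulin counts, than in replicate 1. Replicate 2 was above both naive libraries for 20 of the 21 genes, while replicate 1 was above them for 6 and below them for 8. The transcription factor gene Cebpb was at 158 and 169 CPM in naive, 364 and 768 in non-contact TAM, and 757 and 2775 in contact TAM (3.61 ± 0.76, adjusted p = 0.152). The amino acid transporter gene Slc3a2 was at 587 and 364, 577 and 1002, and 161 and 121 CPM respectively in these groups (-1.60 ± 0.42, adjusted p = 0.213). In 4 genes of this list, Atf3, Ddit4, Ppp1r15a and Cebpb, all 4 TAM libraries were above both naive libraries. The first 3 of them were highest in non-contact TAM replicate 2, at 1331, 104 and 1795 CPM, the library in which Rgs1 was also highest. Nupr1 had no such peak, at 39.6 CPM in both libraries of that group.

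Among themselves, the members with the order naive, non-contact TAM, contact TAM were closely alike over the 6 macrophage libraries. The Pearson r of a member's log2 CPM with the mean standardised log2 CPM of the other 9 was 0.99 for Gpr132, Arl5c, Plxdc1 and Gch1, 0.97 for Nupr1, 0.94 for Ptpro and 0.91 for Arhgef37. It was 0.86 for Gm6377, 0.69 for Rgs1 and 0.44 for Gpr141. Rgs1 and Gm6377 had r = 0.97 with each other, and Rgs1 and Gpr141 had r = -0.15. These correlations over libraries that share groups describe the order of the libraries, not a link between genes. Of 8879 other genes whose mean log2 CPM reached 3, those most like the members' mean profile included the small GTPase gene Arf6 (r = 0.995), Pfdn6 (0.993), the signalling adaptor gene Traf6 (0.992), Chd1 (0.992), Ndufb9 (0.989), Rps14 (0.983) and Uvrag (0.983). Their changes were smaller than the members' median, with log2 fold changes of contact TAM against naive from 0.56 ± 0.21 for Chd1 to 1.37 ± 0.27 for Arf6. Arf6 was at 142 and 157 CPM in naive, 246 and 270 in non-contact TAM, and 318 and 375 in contact TAM.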

How the data were processed

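The authors deposited raw gene counts, 1 table with 6 macrophage libraries and 1 with 2 plasma cell libraries, prepared with the SMART-Seq v4 kit per the labels' protocols. STAR, featureCounts, DESeq2 1.26, mm10 and GRCm38 are named in the submitters' processing notes. Annotation release, strand setting and treatment of multi-mapping reads: not given in the sources used here. Macrophage identifiers were matched to GENCODE M21 (47224 of 47643), by stable identifier where the version differed, as for 4 members. Coordinates cover whole genes. RefSeq promoters are of GRCm38.p6.

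The members and gene lists were chosen with earlier results of these data known. One edgeR 4.0.16 quasi-likelihood model (R 4.3.3, TMM scaling, filterByExpr, 3 residual degrees of freedom) was fitted to the 6 macrophage libraries, with Benjamini-Hochberg adjustment over 15522 genes and calls at 0.05. The script was tested on simulated counts. Alternatives were DESeq2 1.42.0, limma-voom (limma 3.58.1), bias-adjusted quasi-dispersions, RLE scaling, other filters, immunoglobulin genes removed, a replicate block and each library left out. The tables were not tested against each other. The text names all members, the 2 genes of each family list with the smallest p in contact TAM against naive, and, of the 8 genes most like the members (log2 CPM with a prior count of 2), all but 1, which is not reported here. Atf3, Ddit4, Ppp1r15a, Traf1, Nos2, Gpr141b, Cacnb1, Sh3bgrl, Ddx3y and Xist were named after their values were seen. Floors of 3 counts cover counting error only, since reads carry no molecular identifiers.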

Additional observations from a re-analysis of the deposited data

Results flagged for a closer look

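Gpr141 was singled out because every library of contact TAM lay above both naive libraries and every library of non-contact TAM lay below them. Its log2 fold change of contact TAM over non-contact TAM was 2.31 ± 0.33 (SE, n = 2 per group). Its adjusted p was 0.102 with edgeR and 2.6e-08 with DESeq2, and neither is independent evidence, because that comparison was among those that chose the gene. Groups of 2 libraries are too small for a check of single outlying libraries.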

How the results depend on the processing

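Over 14 alternatives, 0 of 420 log2 fold changes of the members changed sign, and 9 members stayed above naive in all 4 TAM libraries with TMM-scaled CPM, RLE-scaled CPM and CPM without immunoglobulin genes. The number of calls changed widely, and the cause was not tested. For contact TAM against naive the calls were 34 genes and 4 members as reported, 1229 and 10 with DESeq2, 0 and 0 with limma-voom, 1437 and 10 with no filter, 20 and 2 without immunoglobulin genes, and 187 and 8 with the mouse number as a replicate block. The genes called were 56 with bias-adjusted quasi-dispersions, 22 with RLE scaling and 52 with the stricter filter. For non-contact TAM against naive, 0 and 0 became 1269 and 9 with DESeq2 and 1548 and 9 with no filter. Between the TAM groups, 0 and 0 became 1618 and 4 with DESeq2, 1871 and 4 with no filter and 27 and 1 with the stricter filter, and the genes called were 22 with bias-adjusted quasi-dispersions and 59 with the block. Of the members called between the TAM groups, Arhgef37 and Gpr141 had been chosen on that comparison. With 1 library left out, calls ran from 0 to 534 genes and 0 to 9 members, from 0 to 477 and 0 to 6, and from 0 to 1510 and 0 to 3 in these comparisons. A group left with 1 library was assumed to vary like the others. The deviations of same-numbered TAM libraries had r = 0.15 over 15522 genes, but Y-linked transcripts differ between the libraries numbered mouse 2, so the number is not taken to pair them. The highest scaled plasma cell share was 1.63% with plasma cell markers in place of immunoglobulin for non-contact TAM replicate 2, and 0.302% for replicate 1.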
